A study of Mus musculus with 2 samples.

Results

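Classical monocytes, the Ly6C-high CCR2-positive monocytes of blood that enter inflamed tissue, were taken from 2 single-cell libraries of cells sorted for high CD45 out of GL261 brain tumours. They were chosen by a gate on raw UMIs (counted RNA molecules). A barcode needed at least 300 detected genes and at most 10% mitochondrial UMIs. It needed at least 5 UMIs of Lyz2 and at least 4 of Ly6c2, Chil3 and F13a1 together. It could hold at most 1 UMI of the complement genes C1qa, C1qb and C1qc together, at most 1 of Ace, Treml4 and Adgre4 together, and none of Cd3d, Cd3e or Cd3g. It could also hold at most 1 of Flt3, Cd209a and Xcr1 together and at most 1 each of Siglech, Cd79a and Retnlg. This gave 126 members of 10041 barcodes that passed the filters, 84 of 5435 in the control library and 42 of 4606 in the metformin library. Both libraries came from C57BL/6 mice on day 20 after GL261 glioma cells were placed in the brain. The control mice drank plain water (DW control water) and the others water with metformin, a biguanide drug known to inhibit complex I of the respiratory chain. GL261 is a transplanted mouse glioma line, and the labels give neither the number, sex or age of the mice per library nor the metformin dose. Each group is 1 library, so no difference between the libraries has a replicate check, no test was possible and no p-value is given. All intervals are 95% intervals of counting error only. Those on gene levels also leave out the spread between cells and between mice.

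Classical monocytes are made in the bone marrow and leave it through the chemokine receptor CCR2, whose ligands include CCL2. In inflamed or tumour-bearing brain they enter from the blood and can turn into macrophages, losing Ly6C and CCR2 and gaining complement, lysosomal and MHC class II genes on the way. Type I interferons induce a shared antiviral programme in them, and hypoxia and inflammatory stimuli induce chemokines, Il1b and Vegfa. The comparisons ask how these monocytes differ from macrophages of the same tumours and how they differ between the libraries.

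The 84 control cells held 838258 UMIs (median 9076.5 per cell, 2448.5 genes) and the 42 metformin cells 486355 (median 10394, 2712 genes), where whole libraries had medians of 7339 and 7967 UMIs over filtered barcodes. Median mitochondrial shares were 2.80% and 2.30%. The doublet caller Scrublet marked 62 control and 37 metformin barcodes (1.14% and 0.803%), none of them a member. The libraries shared 9 barcode sequences, none among the members. At the C1q limit, the 59 members with 1 C1q UMI had a median of 22 Apoe UMIs, and the 26 cells kept out only by having 2 had a median of 59. At the limit on Ly6c2, Chil3 and F13a1, 4 members held 4 UMIs and 5 cells were kept out with 3. Each of the other limits kept out between 0 and 6 cells by a single UMI, apart from the 33 cells with 1 Cd3 UMI.

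The members carried the transcripts of their label beyond the genes of the gate. Ly6c2, a surface protein of these monocytes and also of some T cells, stood at 2664 counts per 1000000 UMIs of the class (CPM) in the control and 3602 in the metformin library, and alone reached 4 UMIs in 120 of the 126 cells. Chil3, a secreted lectin, stood at 705 and 516 CPM, and F13a1, a coagulation factor subunit, at 245 and 123. These 3 genes chose the cells, so their levels are a description. All 3 had a UMI in 23 cells, whereas 56 cells had only Ly6c2, and 1 cell had no Ly6c2 UMI. Ccr2, which the gate did not use, stood at 767 and 654 CPM, against 209 and 195 in macrophages and 6.18 and 12.8 in B cells. After thinning each cell to 4901 UMIs (75 and 39 cells kept, 9 and 3 left out as shallower), Ccr2 had a UMI in 80.0% and 74.4% of monocytes, 39.6% and 48.4% of macrophages and 1.68% and 3.94% of B cells, and in 86.9% and 88.1% of monocytes before thinning. Median depths before thinning were 9827 and 10318.5 UMIs in macrophages and 5702 and 5240.5 in B cells. Hp, the haemoglobin-binding haptoglobin, stood at 459 and 329 CPM in monocytes and 37.6 and 20.4 in macrophages. Its thinned share of cells was 52.0% and 35.9% in monocytes (52.4% and 59.5% before thinning), 5.66% and 6.45% in macrophages and 0.84% and 3.15% in B cells, so it marked only some members. Ly6c2 lies on chromosome 15 at 75108158 to 75111970 and Ccr2 on chromosome 9 at 124101950 to 124113557 (GRCm38, GENCODE M21 annotation). Plac8, an interferon-responsive gene of monocytes, had a UMI in 84 of 84 and 41 of 42 members.

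Macrophage markers were the highest of the other cell types. The 10 of them, C1q included, summed to 5736 CPM in control and 10869 in metformin monocytes, against 31497 and 39652 in macrophages. Non-classical monocyte markers summed to 147 and 86.4 CPM and those of plasmacytoid dendritic cells to 130 and 113. Of 7 neutrophil markers, 6 and 4 were detected with summed levels of 166 and 127 CPM, and Ly6g was at 0. The T cell markers summed to 20.3 and 16.4 CPM, against 5920 and 5635 in T cells, with the 3 Cd3 genes at 0 by the gate. Summed B cell markers reached 227 and 105 CPM, against 52628 and 12897 in B cells, with Ms4a1 at 0. NK cell markers summed to 42.9 CPM in the control and 286 in the metformin library. The 8 microglial markers summed to 231 and 524 CPM, against 539 and 706 in macrophages. The 6 markers of brain and tumour stroma summed to 46.5 and 292 CPM. Markers of conventional dendritic cells, of basophils and mast cells and of erythrocytes stood between 0 and 14.3 CPM. Their part in the results below was not tested.

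**Figure D1:**
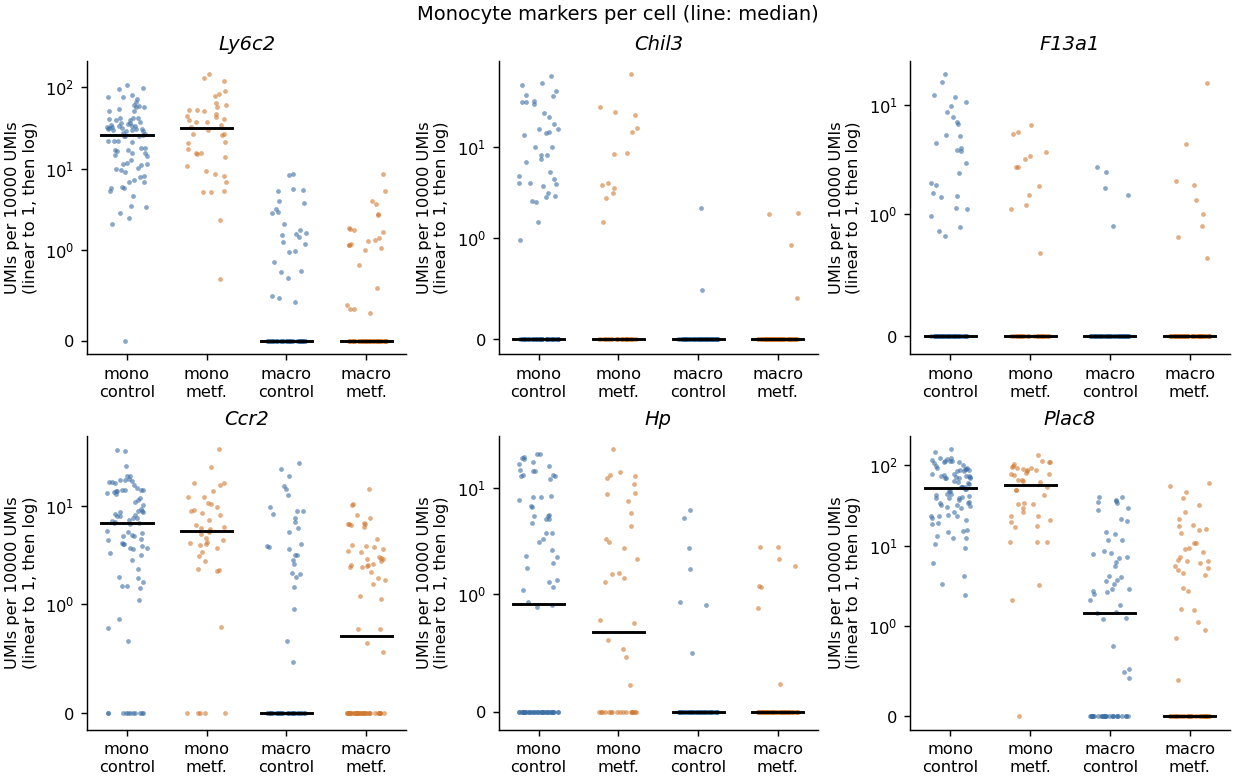
UMIs per 10000 UMIs of each cell (vertical axis, linear up to 1 and logarithmic above) for 6 genes in classical monocytes and macrophages, with control cells in blue, metformin cells in orange and medians as lines. The 3 genes of the upper row chose the monocytes; Ccr2, Hp and Plac8 did not, and Plac8 had a UMI in 125 of 126 monocytes.

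Classical monocytes made up 1.55% of control barcodes (84 of 5435, exact Clopper-Pearson interval 1.23 to 1.91) and 0.912% of metformin barcodes (42 of 4606, 0.658 to 1.23). The ratio of metformin over control was 0.590 (0.397 to 0.864), lower by more than counting error. Among barcodes with at least 5 Lyz2 UMIs the shares were 8.79% and 4.62% (ratio 0.526, 0.354 to 0.770). Macrophages, taken with at least 10 C1q UMIs and at most 3 UMIs of Ly6c2, Chil3 and F13a1, numbered 68 and 74 (ratio of shares 1.28, 0.911 to 1.81), an interval that holds 1. Cells that met the monocyte gene limits but held 2 to 9 C1q UMIs numbered 21 and 23, and those with at least 10 numbered 66 and 66. Of all cells with monocyte genes in these 3 steps, classical monocytes were 49.1% in the control and 32.1% in the metformin library (ratio 0.653, 0.440 to 0.956). Non-classical monocytes, the patrolling Ace-positive type, numbered 46 and 30 (ratio 0.770, 0.469 to 1.25). With every cell thinned to 3608 UMIs before gating, 109 and 66 cells passed and the ratio was 0.711 (0.515 to 0.973). With a C1q limit of 0, 43 and 24 cells remained and the interval held 1 (ratio 0.659, 0.382 to 1.11). The share of other cells in the sort enters the percentages of all filtered barcodes: B cells numbered 548 in the control and 220 in the metformin library.

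Against macrophages of the same library, classical monocytes had more transcripts of monocyte identity and type I interferon genes and fewer of MHC class II and macrophage genes, whereas chemokine genes went both ways. A gene was called where it had at least 50 CPM and 20 UMIs in one class in each library, differed at least 2-fold the same way in both libraries, and had intervals without 1 in both. Of 2621 eligible genes, 126 were higher (4.81%) and 71 lower (2.71%), and 7.52% differed either way. The median log2 ratio of all eligible genes was 0.12, and scaling to that median gave 95 higher and 87 lower. Both classes were gated on genes and share their libraries, so these counts are a description and no test, and no gene of the gates is among them.

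Vcan and Plac8 were among the genes higher in monocytes in both libraries. Vcan, a large matrix proteoglycan made by monocytes, had 42 UMIs in control monocytes and 0 in control macrophages, at least 12.9-fold higher against a floor of 3 UMIs per class. In the metformin library it had 36 UMIs and 1. Only 22 of the 126 cells had a Vcan UMI. Plac8 was at 5552 and 5262 CPM in monocytes and 667 and 656 in macrophages, which gives ratios of 8.32 (7.59 to 9.13) and 8.02 (7.34 to 8.77). The macrophage values of Plac8 were themselves below the 927 and 1003 CPM of B cells.

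S100a4, which encodes a calcium-binding protein, was at 1151 and 954 CPM in monocytes against 97.2 and 125 in macrophages, a ratio of 11.8 (9.36 to 15.2) and 7.60 (6.20 to 9.39). S100a6 was 4.67 and 6.56 times as high in monocytes, Anxa2, which binds membranes and actin, 6.86 and 7.99 times, and Tmsb10, an actin-binding peptide, 3.97 and 4.27 times. S100a8 and S100a9, the paired alarmins abundant in neutrophils, had a UMI in only 5 and 10 of the 126 monocytes. Slpi, a secreted inhibitor of leukocyte proteases, was at 94.2 and 167 CPM against 2.59 and 7.51. Slpi was also at 690 CPM in control B cells and at 0 in metformin B cells. Hp, Ifitm6, Slfn4 and Ms4a8a were also named by rank among the higher genes, with ratios from 10.3 to 30.5. Thbs1, an adhesive matrix protein, was 3.07 and 5.84 times as high, and Ccr2 3.68 (3.09 to 4.40) and 3.35 (2.78 to 4.04) times. Of 22 eligible classical monocyte genes outside the gate, 14 were higher and 0 lower (median log2 ratio 1.55). Of 18 adhesion and migration genes, 6 were higher and 1, the integrin gene Itgax, lower. The background for both lists was 4.81% higher and 2.71% lower.

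Type I interferon response genes were the list with the most called members. Of 38 eligible genes 27 were higher in monocytes (background 4.81%) and 0 lower, with a median log2 ratio of 1.58 against 0.12 over all genes. Ifit3, which restricts viral RNA translation, was at 687 CPM in control monocytes and 115 in control macrophages (ratio 5.96, 4.76 to 7.53), and at 563 and 55.8 in the metformin library (10.1, 7.49 to 13.9). Ifit1, of the same family, was at 391 and 68.7 CPM and at 370 and 26.8. Isg15, a ubiquitin-like protein attached to other proteins under interferon, was at 2416 and 828 CPM (2.92, 2.67 to 3.19) and at 2671 and 643 (4.15, 3.77 to 4.58). Irf7, the transcription factor that amplifies interferon production, was 2.55 (2.28 to 2.85) and 3.64 (3.17 to 4.18) times as high. Isg20, an exonuclease, was 10.3 and 9.67 times as high. Bst2, which tethers budding viruses to the cell, was at 829 and 916 CPM in the control library and did not reach the rule. The share of members with a UMI differed from gene to gene. After thinning, Isg15 had a UMI in 82.7% and 97.4% of monocytes (89.3% and 100% before), 84.9% and 71.0% of macrophages and 22.7% and 18.9% of B cells, so in the control library its share did not separate monocytes from macrophages. Ifit3 had a UMI in 58.7% and 74.4% of monocytes (66.7% and 85.7% before), 20.8% and 22.6% of macrophages and 20.7% and 6.30% of B cells. Before thinning Ifit3b was found in only 24 of 84 and 19 of 42 monocytes. Of 29 eligible interferon-gamma response genes, 5 were higher (Cxcl10, Gbp2, Gbp5, Igtp and Socs1) and 0 lower (median log2 ratio 0.52, background 4.81% and 2.71%).

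The promoters of 3 of these interferon genes and of Irf7 are shown because the genes were higher together. Each window runs from 250 bases before to 50 bases after the gene start, from RefSeq on GRCm38.p6, the patched form of the mm10 build named in the submitters' processing notes. Ifit3 lies at chr19:34583279-34583578 on the plus strand, Ifit1 at chr19:34640639-34640938 on the plus strand, Isg15 at chr4:156200769-156201068 on the minus strand and Irf7 at chr7:141266375-141266674 on the minus strand. Capitals mark GAAANNGAAA, the core of the interferon-stimulated response element, on either strand (the other strand reads TTTCNNTTTC), with overlapping matches joined.
Ifit3: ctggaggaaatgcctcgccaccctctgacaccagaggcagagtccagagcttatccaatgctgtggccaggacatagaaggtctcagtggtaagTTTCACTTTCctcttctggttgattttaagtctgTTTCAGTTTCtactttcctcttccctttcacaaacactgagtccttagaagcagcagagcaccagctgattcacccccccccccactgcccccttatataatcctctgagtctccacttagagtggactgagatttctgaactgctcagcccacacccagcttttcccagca
Ifit1: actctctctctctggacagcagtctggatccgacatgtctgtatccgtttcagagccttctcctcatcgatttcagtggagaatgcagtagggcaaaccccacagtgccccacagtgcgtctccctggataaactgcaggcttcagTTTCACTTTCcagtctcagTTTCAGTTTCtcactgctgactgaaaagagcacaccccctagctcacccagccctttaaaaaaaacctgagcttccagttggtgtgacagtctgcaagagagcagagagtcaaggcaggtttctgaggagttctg
Isg15: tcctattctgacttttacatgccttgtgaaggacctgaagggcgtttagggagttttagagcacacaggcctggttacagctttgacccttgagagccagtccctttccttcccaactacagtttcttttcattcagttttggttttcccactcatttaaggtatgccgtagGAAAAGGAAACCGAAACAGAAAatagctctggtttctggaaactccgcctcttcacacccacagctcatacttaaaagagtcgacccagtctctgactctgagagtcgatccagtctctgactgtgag
Irf7: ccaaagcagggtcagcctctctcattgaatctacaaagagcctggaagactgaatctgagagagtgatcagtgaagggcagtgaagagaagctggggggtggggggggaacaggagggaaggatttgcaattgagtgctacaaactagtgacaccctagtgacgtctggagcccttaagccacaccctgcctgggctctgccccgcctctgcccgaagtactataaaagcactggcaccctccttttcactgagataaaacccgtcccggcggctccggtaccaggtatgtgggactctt
The motif stood 2 times in the Ifit3 window, 2 times in that of Ifit1, 3 times with overlaps in that of Isg15, and 0 times in that of Irf7. Of the 27 interferon genes higher in monocytes, 21 had a window and 13 of these held the motif (61.9%). Of the 11 other eligible interferon genes, 8 had a window and 5 held it (62.5%). Over all 32851 windows 1131 held it (3.44%), and over the 2107 eligible genes with a window 126 did (5.98%). A match is a description of letters and not a measured binding site.

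Fewer transcripts of macrophage and antigen presentation genes were found in monocytes. Mgl2, a lectin of macrophages and dendritic cells, was at 4.77 and 4.11 CPM against 127 and 105 in macrophages, ratios of 0.0376 (0.0100 to 0.0993) and 0.0391 (0.00467 to 0.145). Mrc1, the mannose receptor, was at 7.16 and 32.9 CPM against 85.5 and 159, and Pf4, a platelet-type chemokine, at 1.19 and 32.9 against 58.3 and 148. Of 26 eligible macrophage genes outside the gate, 0 were higher and 11 lower (background 2.71%, median log2 ratio -1.24), among them Apoe, Trem2, Cd63, Cd81, Ms4a7 and Mertk. Apoe, the lipid carrier, was at 4586 CPM in control and 9345 in metformin monocytes, against 15743 and 23215 in macrophages and 1263 and 1848 in B cells. H2-Eb1, an MHC class II chain, was at 3566 and 3175 CPM against 11547 and 11048 (ratios 0.309, 0.296 to 0.322, and 0.287, 0.272 to 0.303), and Cd74, the class II invariant chain, was 0.325 and 0.370 times as high. Of 12 eligible class II and dendritic genes, 6 were lower (background 2.71%) and 0 higher (4.81%). The chemokines split: Ccl12, Ccl3, Ccl4 and Pf4 were lower, with Ccl4 at 234 and 436 CPM against 902 and 2252, whereas Ccl9 and Cxcl10 were higher. Cxcl10, which draws CXCR3-positive T cells, was 7.07 (6.18 to 8.11) times as high in the control and 2.89 (2.53 to 3.29) times in the metformin library. Rgs1, Hpgds, Acp5, Cd72, Itgax and Slamf9 were the other named genes lower in monocytes, with ratios from 0.0599 to 0.264.

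**Figure D2:**
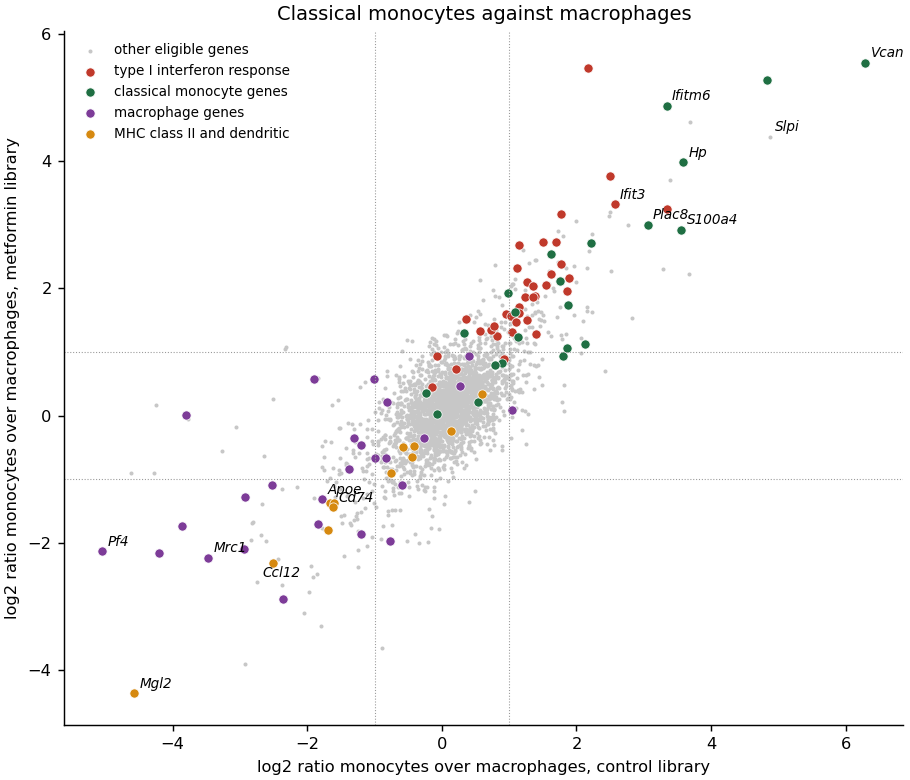
Log2 CPM ratio of classical monocytes over macrophages in the control library (horizontal axis) and the metformin library (vertical axis), 1 point per eligible gene, with 4 gene lists coloured and dotted lines at 2-fold. Type I interferon genes (27 of 38 called higher) and classical monocyte genes lie towards the upper right, and macrophage and class II genes towards the lower left.

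Receptor genes went both ways between monocytes and macrophages. Of 22 eligible receptors 5 were called, against 7.52% of all eligible genes, and 3 of them were higher: Ccr2, Il17ra and Ltb4r1, the receptor for the attractant leukotriene B4 (105 and 107 CPM against 18.1 and 11.8). C3ar1 and C5ar1, receptors of complement fragments, were lower. Csf1r, the receptor for the macrophage growth factor CSF1, was at 451 and 391 CPM against 557 and 601 and did not reach the rule. None of 23 monocyte transcription factors was called. Spi1, which encodes the myeloid factor PU.1, was 1.39 and 1.40 times as high in monocytes. None of 20 hypoxia and glycolysis genes was called (median log2 ratio 0.40), and among 36 nuclear complex I subunits only Ndufa4 was (higher). Of 19 eligible inflammatory genes, Acod1, Casp4 and Il18 were higher (background 4.81%) and Tnf lower (2.71%).

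Between monocytes and macrophages lay the cells with monocyte genes and C1q transcripts. In the control library the summed type I interferon list stood at 28125 CPM in monocytes, 22412 in cells with 2 to 9 C1q UMIs, 20312 in cells with at least 10, and 12696 in macrophages. In the metformin library it stood at 28477, 23895, 15052 and 9482. The summed classical monocyte genes outside the gate stood at 19160, 19336, 11800 and 6533 CPM in the control and 18892, 15894, 9563 and 5995 in the metformin library. Class II and dendritic genes stood at 23780, 17585, 48617 and 67563 CPM in the control library and at 24998, 40354, 52866 and 64597 in the metformin library. Macrophage genes were highest not in macrophages but in the cells with both monocyte genes and at least 10 C1q UMIs, at 35851 against 27723 CPM in the control and 43511 against 35828 in the metformin library. The steps with 2 to 9 C1q UMIs held only 21 and 23 cells, and the order of steps was set by the gates on C1q and monocyte genes and is no time course.

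**Figure D3:**
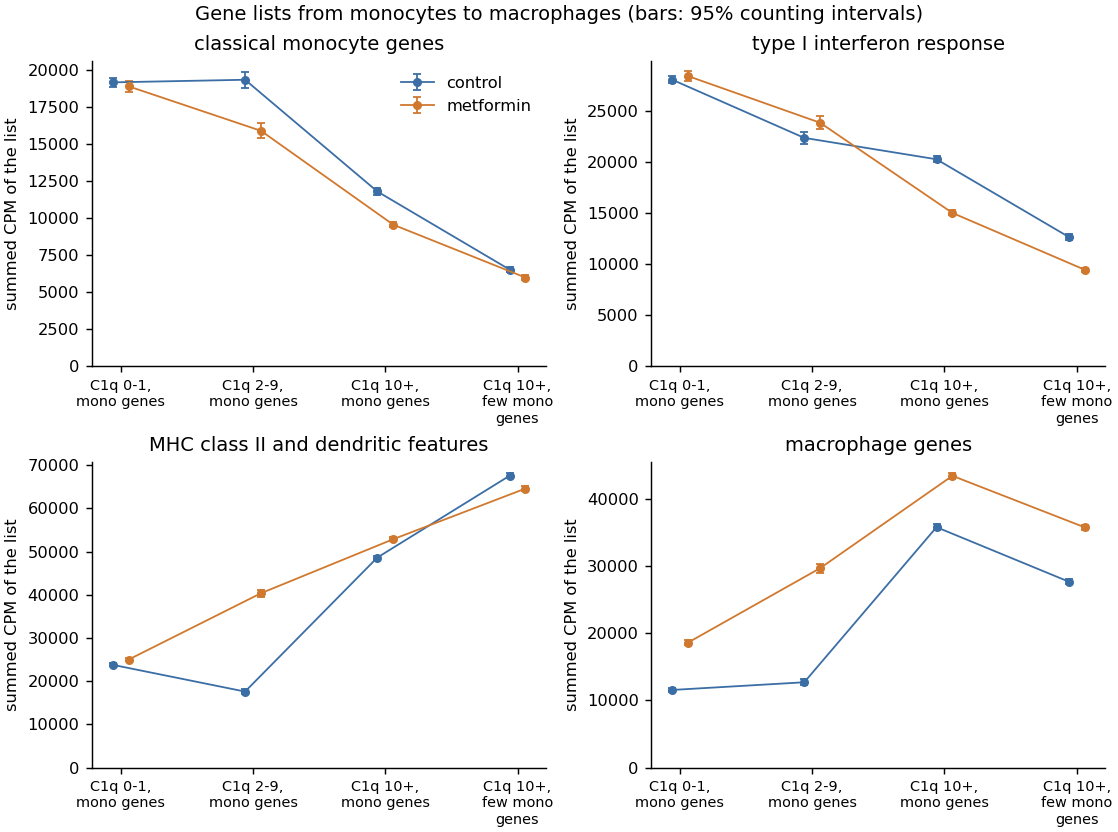
Summed CPM of 4 gene lists (vertical axes, from 0) in 4 steps from classical monocytes (C1q 0 to 1) through cells with monocyte genes and 2 to 9 or at least 10 C1q UMIs to macrophages, with control in blue, metformin in orange and 95% counting intervals as bars. Interferon and monocyte genes were lower in macrophages than in monocytes in both libraries, and class II genes were higher.

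Non-classical monocytes of the same libraries shared some of the monocyte genes. Hp was at 446 and 417 CPM there, against 459 and 329 in classical monocytes. Ccr2 was at 280 and 276 CPM and Plac8 at 3847 and 3617, both below their classical levels of 767 and 654 and of 5552 and 5262. S100a4 was higher in the non-classical type, at 1605 and 1943 CPM against 1151 and 954. Their defining genes outside the gate were low in classical monocytes: Spn, the mucin CD43, was at 26.2 and 12.3 CPM against 356 and 352, and the integrin gene Itgal at 90.7 and 96.6 against 890 and 777. Nr4a1, the factor that non-classical monocytes need, was at 230 and 234 CPM in classical and 644 and 957 in non-classical cells. Isg15 was at 716 and 1174 CPM in non-classical monocytes, below the 2416 and 2671 of classical ones.

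The classical monocytes were uneven in class II transcripts. Cd74, H2-Aa, H2-Ab1 and H2-Eb1 together had a median of 64.3 UMIs per 10000 in control cells (quartiles 3.52 and 424) and 134 in metformin cells (9.44 and 366). At least 100 per 10000 were found in 40 of 84 and 22 of 42 cells, and fewer than 10 in 31 of 84 and 11 of 42. The class thus held cells near the level of macrophages (medians 605 and 560) and cells near that of non-classical monocytes (7.94 and 7.45) or T cells (1.12 and 1.30). Among 1115 genes thinned to 4901 UMIs per cell, the 10 with the largest ratio of variance to mean in both libraries were Apoe, Cd74, Ccl5, Fth1, H2-Ab1, Cxcl9, H2-Aa, H2-Eb1, Fabp5 and Malat1. That ratio was 59.7 for Apoe and 43.1 for Cd74 in the library where it was lower, against a median of 1.24. Of these 10 genes, 4 are class II genes, and Ccl5 and Cxcl9 are chemokines that draw T cells.

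**Figure D4:**
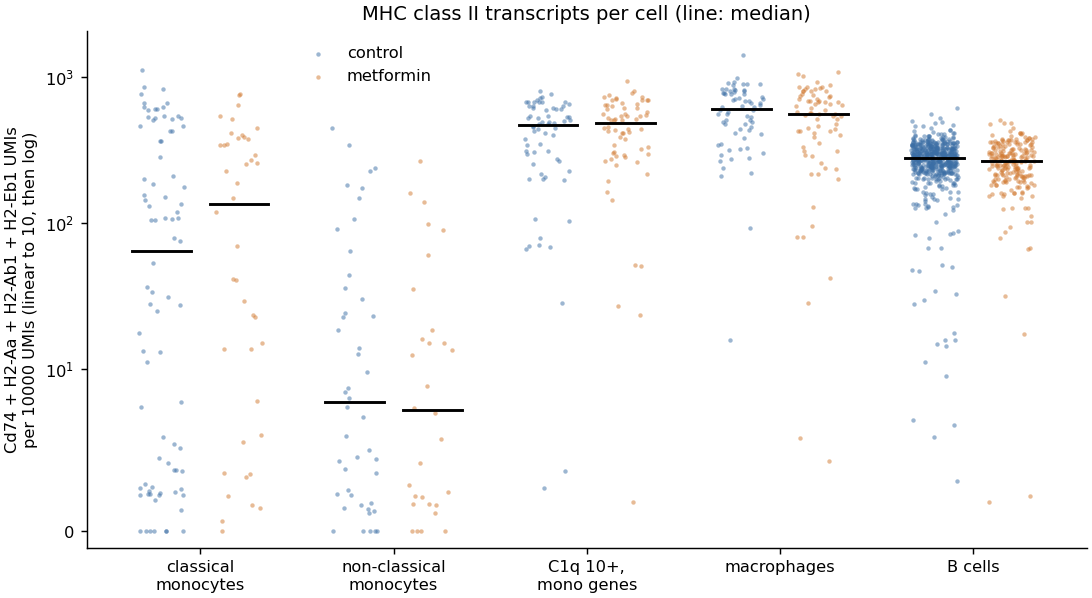
MHC class II UMIs (Cd74, H2-Aa, H2-Ab1 and H2-Eb1) per 10000 UMIs of each cell (vertical axis, linear up to 10 and logarithmic above) in 5 classes, control in blue and metformin in orange, with medians as lines. Classical monocytes spread from 0 to the level of macrophages in both libraries.

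Between the libraries, metformin monocytes had more transcripts of chemokine, inflammatory and macrophage genes and fewer of cell cycle genes than control monocytes, and a large part of these counts rested on few cells. To be called, a gene had to reach 50 CPM and 20 UMIs in either library and to differ 1.5-fold or more, with 1 outside the interval. Of 2911 eligible genes, 230 were higher (7.9%) and 175 lower (6.01%) in the metformin library, 13.9% either way. Of these, 119 and 103 were still called without the cell richest in the gene in each library, and 158 and 100 with each cell given equal weight. In 56 of the 230 and 14 of the 175 a single cell held at least 50% of the UMIs in its library. These counts come from 42 and 84 cells and have no replicate, and differences between mice were not measured.

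The genes ranked first by the interval belonged to single cells. A metformin cell of 44274 UMIs held 94 of 94 Col1a1 UMIs, 71 of 71 of Col1a2, 227 of 227 of Igfbp5 and 641 of 642 of Mgp, all genes of matrix-forming cells. The same cell had 219 Lyz2, 3 Ly6c2 and 0 Plac8 UMIs. Fstl1, Tm4sf1, Col6a1, Col6a2, Col12a1, Mt2, Igfbp7 and Ptn were at 0 in control monocytes and had between 95.1% and 100% of their metformin UMIs in 1 cell. All 6 stroma markers summed to 46.5 CPM in the control and 292 in the metformin class, with Cldn5 at 0. Of the chemokine gene Ccl7, 76 of 76 metformin UMIs came from 1 other cell. A control cell of 60219 UMIs held 214 of 214 UMIs of Mpo, 224 of 226 of Elane, 437 of 482 of Prtn3 and 152 of 154 of Ctsg, granule enzymes of early myeloid cells. It also had 103 Ly6c2, 28 Top2a and 13 Mki67 UMIs. Neither cell was marked as a doublet. Without both cells 159 genes were higher and 119 lower, of which 135 and 95 were among the 230 and 175. Genes named from here on as holding without the richest cell were chosen after their values were seen.

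Chemokines of inflammation were higher in metformin monocytes. Cxcl2, which draws neutrophils through CXCR2, had 38 UMIs in 10 of 84 control cells and 994 in 11 of 42 metformin cells, at 45.3 and 2044 CPM. The ratio was 45.1 (32.6 to 64.1), and 31.8 (21.9 to 48.0) without the richest cell of each library, which held 47.2% of the metformin UMIs. In macrophages of the same libraries the ratio was 2.09 (1.91 to 2.29). Ccl2, the CCR2 ligand, was at 186 and 409 CPM (ratio 2.20, 1.77 to 2.73), in 25 and 16 cells, and 4.54 (3.75 to 5.51) times as high in metformin macrophages. Of 13 eligible chemokines 8 were higher (background 7.9%) and 1, Cxcl10, lower, with a median log2 ratio of 0.90 against -0.01 over all genes. Of the 13, 4 reached the minimum only in the metformin library, which favours a call of higher. Summed over all 17 chemokines of the list, with no minimum, the level was 7568 and 10110 CPM (ratio 1.34, 1.29 to 1.39). Most of the rise in this sum was Cxcl2 alone, at 45.3 and 2044 CPM, with 47.2% of its metformin UMIs in 1 cell. The sum therefore does not show a rise across the list, and the sum of the other chemokines was not tested. Without the richest cell 4 of 11 eligible chemokines were higher (background 5.02%) and 1 lower (5.41%). Cxcl10 was at 2244 and 1195 CPM (ratio 0.532, 0.484 to 0.585), but 38 of 84 control and 26 of 42 metformin cells had a UMI, and with equal cell weights it no longer met the rule (ratio 0.690). Ccl5 was at 2367 and 2743 CPM and Cxcl9 at 1231 and 1339, neither past the rule.

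Genes of inflammatory signalling were higher as well. Il1b, the inflammasome-processed cytokine, was at 1872 and 3960 CPM (ratio 2.12, 1.98 to 2.26; 1.84 without the richest cell), with UMIs in 62 of 84 and 35 of 42 cells. Nlrp3, the sensor of the inflammasome, had 29 UMIs in 20 control cells and 70 in 20 metformin cells (ratio 4.16, 2.66 to 6.65). Ptgs2, the prostaglandin-forming cyclooxygenase, was at 156 and 333 CPM (2.13, 1.68 to 2.70), and Nfkbia, the inhibitor that NF-kB induces, at 385 and 744 (1.93, 1.66 to 2.25). Il1a had 4 UMIs in 3 control cells and 42 in 7 metformin cells (ratio 18.1, 6.57 to 69.5). Of 18 eligible inflammatory genes 9 were higher (background 7.9%) and 0 lower (median log2 ratio 0.56), and 8 were higher without the richest cell (background 5.02%). Of the 18, 3 reached the minimum only in the metformin library. All 26 genes of the list summed to 5264 and 8759 CPM (ratio 1.66, 1.59 to 1.74). Most of the rise in this sum was Il1b alone, with 23.1% of its metformin UMIs in 1 cell. The sum by itself therefore does not show a rise across the list. With no minimum, 19 of the 26 genes had a higher CPM in the metformin library and 5 a lower one. The list holds Vegfa, which also stands in the hypoxia list. Tnf had 35 and 23 UMIs and was under the minimum. Among 25 eligible immediate early genes, which cell handling can also induce, 8 were higher and 1, Nr4a2, was lower (background 7.9% and 6.01%). Dusp1 (307 and 621 CPM) and Ier3 (313 and 664) were among the higher. Whether handling differed between the libraries was not tested. Cd14, the lipopolysaccharide co-receptor, was at 388 and 794 CPM (2.05, 1.76 to 2.38), 1 of 6 higher among 20 pattern recognition and Fc receptors (background 7.9%).

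**Figure D5:**
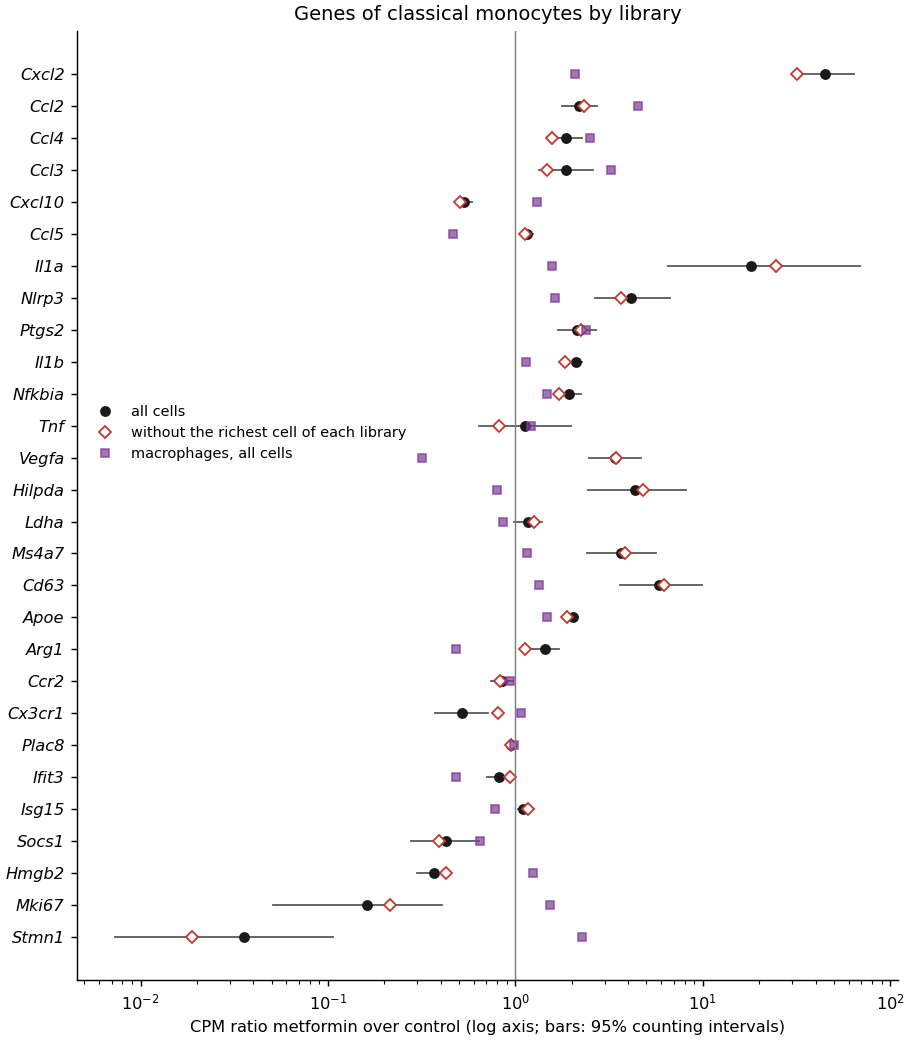
CPM ratio of metformin over control (logarithmic horizontal axis) for 28 genes in classical monocytes, all cells (black, 95% counting intervals as bars) and without the richest cell of each library (red diamonds), beside macrophages (violet squares). Cxcl2 stands at 45.1 in monocytes and 2.09 in macrophages, and Stmn1 at 0.0357 and 2.26. The macrophage ratio of Stmn1 rests on 11 control and 30 metformin UMIs, under the minimum of 50 CPM in both libraries.

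Macrophage genes were higher in metformin monocytes, gated with the same C1q limit. The 10 macrophage markers, which include genes of the list, summed to 5736 CPM in control and 10869 in metformin monocytes. Their sum was also higher in the metformin library in macrophages (31497 and 39652 CPM), T cells (946 and 1416) and B cells (1928 and 2798). The 8 microglial markers summed to 231 and 524 CPM in monocytes. The part of both marker sets in the result was not tested. Apoe was at 4586 CPM in the control and 9345 in the metformin library (ratio 2.04, 1.95 to 2.13), with medians of 14.5 and 51.0 UMIs per cell. In macrophages the Apoe ratio was 1.47 (1.44 to 1.51), and in B cells, which carry it at 1263 and 1848 CPM, the level was also higher in the metformin library. Ms4a7, a membrane protein of macrophages, was at 41.8 and 152 CPM (3.64, 2.41 to 5.61), in 12 of 84 and 20 of 42 cells, and 1.16 (0.979 to 1.37) times as high in metformin macrophages. Cd63, a lysosomal membrane protein, was at 26.2 and 154 CPM (5.88, 3.61 to 9.93). Of 24 eligible macrophage genes outside the gate 12 were higher (background 7.9%) and 0 lower (6.01%), with a median log2 ratio of 0.60. With each cell given equal weight 8 were higher and 0 lower (median 0.34). Of the 24, 7 reached the minimum only in the metformin library. All 30 genes of the list summed to 11570 and 18620 CPM (ratio 1.61, 1.56 to 1.66). The ratio was 1.38 (1.34 to 1.42) without the Mpo and Col1a1 cells. Most of the rise with all cells was Apoe alone, with 23.6% of its metformin UMIs in 1 cell. The sum by itself therefore does not show a rise across the list. With no minimum, 25 of the 30 genes had a higher CPM in the metformin library and 4 a lower one. Without the richest cell 6 of 19 were higher (background 5.02%), and without the Mpo and Col1a1 cells 7 of 23 were (background 5.65%) and 0 were lower (4.23%). Spp1 had 146 metformin UMIs, of which 94.5% came from 1 cell, and a ratio of 0.891 without the richest cells. With a C1q limit of 0 the list had 13 of 20 higher and 0 lower, where 9.34% of all eligible genes were higher. Arg1, an enzyme of suppressive myeloid cells, was at 338 and 485 CPM (1.44, 1.20 to 1.71) and did not reach the rule, and in macrophages it was lower in the metformin library (ratio 0.483, 0.418 to 0.557).

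With all cells, genes of complex I, a known target of metformin, lay close to the median of all genes. The median log2 ratio was -0.0021 over 36 nuclear subunit genes, of which 1 was lower (background 6.01%) and 0 higher, and -0.01 over 6 subunit genes of the mitochondrial genome. Subunit genes of the mitochondrial genome summed to 4199 and 4081 CPM (ratio 0.972, 0.919 to 1.03). Without the Mpo and Col1a1 cells their ratio was 0.817 (0.766 to 0.872), and that of the nuclear sum 1.03 (0.979 to 1.08). With a C1q limit of 0 the nuclear median was -0.18, with 1 higher and 3 lower of 36 (background 9.34% and 11.4%). Of 23 eligible hypoxia and glycolysis genes only Vegfa and Bnip3 were higher and 0 lower (median 0.16), a share near the 7.9% of all eligible genes, so the values that follow are those of single genes and not of the list. Vegfa, the hypoxia-induced vascular growth factor (chromosome 17, 46016993 to 46032369, GRCm38), had 60 UMIs in 24 of 84 control cells and 118 in 21 of 42 metformin cells. That is 71.6 and 243 CPM, a ratio of 3.39 (2.46 to 4.71), and 3.45 (2.45 to 4.91) without the richest cell. In macrophages Vegfa ran the opposite way, with 360 and 115 CPM (0.319, 0.252 to 0.399). After thinning, 18.7% and 38.5% of monocytes and 49.1% and 19.4% of macrophages had a Vegfa UMI, against 1.68% and 3.15% of B cells (24 of 84 and 21 of 42 monocytes before thinning). Bnip3, a mitophagy gene induced by hypoxia, was at 38.2 and 72.0 CPM (1.89, 1.13 to 3.15). Hilpda, a hypoxia-induced lipid droplet protein outside the list and named after its values were seen, was at 20.3 and 88.4 CPM (4.36, 2.44 to 8.15). The glycolytic enzyme gene Ldha (390 and 456 CPM), the glucose transporter gene Slc2a1 (111 and 138) and Hif1a (437 and 491) did not reach the rule.

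The summed interferon genes of monocytes were close between the libraries. The type I list had 28125 and 28477 CPM in all. Of 41 eligible genes 2 were higher (Ifit3b and Irf9) and 4 lower (Cmpk2, Ifi44, Ifit2 and Rsad2), with a median log2 ratio of 0.10. The background over all eligible genes was 7.9% higher and 6.01% lower, and both counts lay near it. In macrophages the median over the same list was -0.49, and its sum 12696 and 9482 CPM. Isg15 was 1.11 (1.03 to 1.19) times as high in metformin monocytes and 0.777 (0.694 to 0.870) times in metformin macrophages. The difference between the classes was not tested. The monocyte result turned on the C1q limit: among cells with no C1q UMI, 18 of 39 type I genes were higher and 0 lower (median 0.54). Over all 2741 genes eligible among these cells 9.34% were higher and 11.4% lower. For the interferon-gamma list 0 were higher and 3 lower of 31 (Cxcl10, Iigp1 and Socs1, median 0.18), against a background of 7.9% and 6.01%. With no C1q UMI 12 of its 29 eligible genes were higher and 2 lower (median 0.55, background 9.34% and 11.4%). Socs1, an inhibitor of interferon signalling, was at 144 and 61.7 CPM (0.427, 0.276 to 0.642). Of 10 eligible class II and dendritic genes 0 were called in either direction (background 13.9%). Among cells with no C1q UMI 4 were higher (background 9.34%).

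Identity genes were nearly level between the libraries at the C1q limit of the gate. Of 22 classical monocyte genes outside the gate, 3 were higher (Thbs1, Clec4d and Clec4e) and 1 lower (Napsa), with a median log2 ratio of -0.06. The background over all eligible genes, for this list and for the receptors and transcription factors, was 7.9% higher and 6.01% lower, and the 1 lower gene among the 22 is at or under that share. With a C1q limit of 0, 5 of the 22 were higher and 5 lower (median 0.12, background 9.34% and 11.4%). Ccr2 was at 767 and 654 CPM (ratio 0.852, 0.743 to 0.976), Plac8 at 5552 and 5262 (0.948, 0.903 to 0.995) and Hp at 459 and 329 (0.716, 0.592 to 0.863), none past the rule. Of 23 eligible chemoattractant and growth factor receptor genes 4 were higher, C3ar1, Fpr2 and Ifnar1 among them, and 1 lower. This was Cx3cr1, the fractalkine receptor, at 202 and 105 CPM (0.520, 0.373 to 0.715), but 45.6% of its control UMIs came from 1 cell and the ratio without it was 0.807 (0.546 to 1.17). Of 23 transcription factor genes 4 were higher: Bhlhe40, Id2, Klf2 and Klf6. Spi1 (687 and 679 CPM) and Irf8 (389 and 387), which direct monocyte development, were nearly level.

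Summed cell cycle transcripts were lower in metformin monocytes, and the control side rested on few cells. Stmn1, a microtubule regulator of dividing cells, had 145 UMIs in 10 of 84 control cells and 3 in 2 of 42 metformin cells (173 and 6.17 CPM, ratio 0.0357, 0.00727 to 0.106). A single cell held 39.3% of the control UMIs, and without the richest cells the ratio was 0.0188 (0.000471 to 0.108). Top2a, which untangles DNA, had 58 UMIs in 5 control cells and 0 in the metformin library, at least 11.2-fold lower against a floor of 3 UMIs per class. Pclaf, Rrm2, Dut, Birc5, Mcm7, Hist1h1b and Hist1h2ae, which serve DNA copying, chromatin or division, were also lower in the metformin library. Of the 26 cell cycle genes of the list 11 reached the minimum, 8 of them only in the control library, where they were high, so that 10 were called lower and 0 higher is partly set by the minimum (background 6.01%). With no minimum all 26 had a lower CPM in the metformin library, and they summed to 3005 and 1320 CPM (ratio 0.439, 0.402 to 0.479). Without the Mpo and Col1a1 cells the sums were 2437 and 1348 CPM (ratio 0.553, 0.504 to 0.607). Counted by cell, 7 of 84 control members (8.33%, 3.42 to 16.4) and 0 of 42 metformin members held at least 3 UMIs over Mki67, Top2a, Birc5, Cdk1, Ccna2 and Ube2c. The 0 of 42 allows a share of up to 7.14% at 3 counts of the total, and up to 8.41% by the exact interval. At a limit of 1 UMI the counts were 16 of 84 and 7 of 42, 19.0% and 16.7%.

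Gh, the pituitary growth hormone gene, was also among the lower genes, with 64 UMIs in 20 control monocytes and 1 in the metformin library. It stood at 76.3 CPM in control monocytes, 113 in control macrophages, 83.3 in control B cells and 80.3 in control T cells, and at 2.06, 0, 0.641 and 0.893 CPM in the same classes of the metformin library. Its level in the control library was thus like that in cell types that should lack it.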

How the data were processed

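Both libraries were droplet libraries; per the labels' protocols, the 10x Genomics 3' chemistry was v3. Cell Ranger, Seurat and the build mm10 are named in the submitters' processing notes, and the matrix software was version 3.0.0 per the file headers. Aligner settings and annotation are not given in the sources used here. Raw UMI counts were deposited by the authors for 31053 genes: 49651404 UMIs over 6174 control barcodes and 47142356 over 5473 metformin barcodes, with no barcode under 500 UMIs.

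Barcodes were filtered (at least 300 genes, at most 10% mitochondrial UMIs) and gated on raw counts without clustering. Cell classes were rebuilt from the counts and may differ from those of the study. UMIs were summed per class and library and scaled to 1000000 of that sum (CPM), with exact Poisson and exact conditional binomial intervals. For log2 ratios each sum was raised by 0.5 UMI. Folds against a class without UMIs took 3 UMIs as the floor. Intervals and floors cover counting error only. Cells were not treated as replicates and no test was run. Scrublet, as built into scanpy 1.11.5 (expected rate 5%), looked for doublets. Python 3.11.15, numpy 2.4.6, scipy 1.17.1 and pandas 2.3.3 were used, and the ratio calculation was tested on simulated data.

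Named genes were the 15 highest and 15 lowest in each comparison by the interval bound nearest to 1, the 10 most variable genes, and members of 19 lists. Some of these genes are not reported here. Immunoglobulin, T cell receptor, mitochondrial, ribosomal, haemoglobin, sex-linked and predicted genes were left out of the naming. The members, gates and lists were chosen with earlier results of these data known. Alternatives were other filters, gate limits, scalings, weights and minimum levels. Leaving out the Mpo and Col1a1 cells was chosen after seeing the data. Promoter windows came from RefSeq (GRCm38.p6) and were matched by symbol.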

Additional observations from a re-analysis of the deposited data

Results flagged for a closer look

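In classical monocytes Stmn1 was lower in the metformin library (ratio of metformin over control 0.0357, 0.00727 to 0.106). In macrophages of the same libraries its ratio was 2.26 (1.10 to 4.99). That ratio rests on 11 control and 30 metformin UMIs, under the minimum of 50 CPM in both libraries. Stmn1 drew attention because the 2 classes ran in opposite directions. The difference between the classes was not tested.

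Vegfa ran in opposite directions as well, higher in metformin monocytes (ratio 3.39, 2.46 to 4.71) and lower in metformin macrophages (0.319, 0.252 to 0.399). This difference was not tested either.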

How the results depend on the processing

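The ratio of monocyte shares stayed under 1 in all 9 alternatives, from 0.526 to 0.711, although its interval held 1 with a C1q limit of 0. Between the libraries, the count of higher genes (230) became 130 without the richest cell per gene, 558 with no minimum level, 52 with at least 200 CPM and 50 UMIs, and 114 at a ratio of at least 2. The count of lower genes (175) became 380, 24 and 71 under the last 3 of these, and 312 with a C1q limit of 0, where 103 of the 230 and 124 of the 175 genes were shared. Against macrophages, the count of higher genes (126) became 59 with at least 200 CPM and 50 UMIs and 24 at a ratio of at least 4, and that of lower genes (71) became 150 with no minimum, 23 and 14. Stricter minimums and ratios test or call fewer genes by construction, and the cause of the other changes was not tested. The log2 ratio of Ccl7 turned to -0.78 without the richest cell, that of Mpo to 0.70 without it and 0.82 without the Mpo and Col1a1 cells, and that of Elane to 0.079 without these cells; few or no UMIs then remained, so these values rest on the 0.5 UMI added. Of the other values, 1319 stayed within their limits and 170 moved. The moves were concentrated in the 50 genes named between the libraries: 34 moved with equal cell weights and 30 with a C1q limit of 0. Without the richest cell 27 moved and 2 turned, and without the Mpo and Col1a1 cells also 27 and 2. Other minimums, another ratio or leaving out doublets kept all 50 the same by construction, so the 1319 overstate how stable these genes were. No paired analysis was possible because each group is 1 library and the labels carry no replicate numbers. The number of cells limits the precision: 0 cycling cells of 42 leave an exact upper limit of 8.41%.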
